A study of Arabidopsis thaliana with 12 samples.

Results

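The stepwise rising probe sets were 150 of the 22810 rows of an Affymetrix ATH1 value table, in which transcript level in the pmr5 pmr6 double mutant stood above both single mutants, and both single mutants stood above the wild type. A probe set is a group of short probes that together report the level of a transcript as 1 intensity. Rows without a control (AFFX) identifier and with a mean intensity of at least 100 over the 12 arrays were eligible, which left 13659. Each received a score, the smallest of 4 differences of genotype means of log2(intensity + 28): pmr5 minus Col-0, pmr6 minus Col-0, double minus pmr5 and double minus pmr6. The 150 highest scores were taken, and all of them lay above the minimum of 0.25.

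The arrays measured total RNA from rosettes of untreated Arabidopsis thaliana plants, 3 weeks old, grown at 22 °C with 14 h of light. The groups were the pmr5 pmr6 double mutant, the pmr5 mutant, the pmr6 mutant and the wild-type accession Col-0, with 3 biological replicates of each. The labels name the genotypes without alleles and do not say how plants were pooled. Each p-value therefore rests on the spread between arrays within genotypes, whatever its source. In the main fit this spread was pooled over all genotypes and drawn toward an intensity trend across rows. The comparisons ask which transcripts respond to each mutation and whether the responses add up when the mutations are combined.

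PMR5 and PMR6 were found in a screen for plants resistant to powdery mildew, a fungus that feeds through the epidermal cell wall. PMR6 encodes a pectate lyase-like protein, of a family related to enzymes that cut pectin, the gel-forming polysaccharide of the primary wall. PMR5 encodes a protein of a plant-specific family, and walls of both mutants are altered in pectin.

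No member is named. Identifiers of 146 pairs of rows shared their annotated gene, and across these pairs the mean log2 level of one row correlated with that of the other at r = 0.05 as deposited, and at 0.16 when identifiers were moved by the 64 AFFX rows. Of 22810 displacements tried, 1 gave a correlation over 0.5 (0.52), but there the 2 rows of a pair shared no profile across arrays (mean r = 0.01) and the row assigned to rbcL, the large subunit of Rubisco and an abundant leaf transcript, lay at percentile 7.9. The row order was therefore not shown, the levels of the PMR5 and PMR6 transcripts and the rosette markers were not checked, and each member is called by its rank of score. For the same reason it is not known whether leaving out AFFX identifiers left out the control rows.

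The members were highest on the double-mutant arrays, intermediate on the single-mutant arrays and lowest on the Col-0 arrays. The median intensity of the 150 members was 783, 689 and 621 on the pmr5 pmr6 arrays, 408, 438 and 350 on the pmr5 arrays, 359, 338 and 328 on the pmr6 arrays, and 211, 143 and 133 on the Col-0 arrays, in order of replicate number. The median over members of the genotype mean was 757 in pmr5 pmr6, 392 in pmr5, 346 in pmr6 and 170 in Col-0. All of these levels follow from the rule and are given as a description. The pmr5 arrays and the pmr6 arrays overlapped. Each genotype kept to a fluidics module of its own in all 3 hybridization runs, so module and genotype cannot be told apart, and the instrument record of pmr5 pmr6 replicate 2 shows a staining step that was stopped. The median over all rows was 168 to 190 on the 12 arrays, and the 5th percentile was 9.2 on pmr5 pmr6 replicate 3 and 9.6 on pmr5 replicate 1, against 3.0 to 5.0 on the others, a raised dim end. In RNA of whole rosettes, more cells of a type that express a transcript and more transcript per cell cannot be told apart either.

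**Figure D1:**
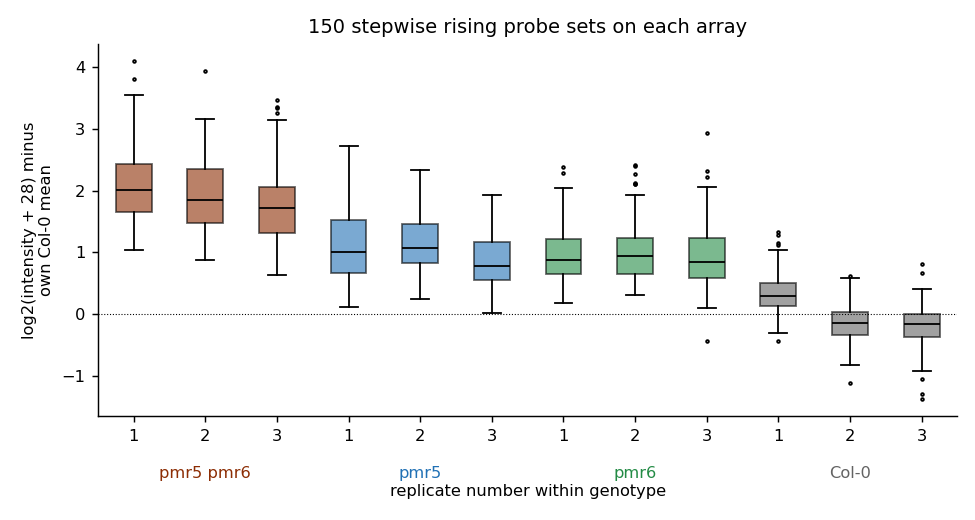
Level of the 150 members on each array, as log2(intensity + 28) minus the member's own Col-0 mean, by genotype and replicate number; boxes show the quartiles, whiskers reach 1.5 times the box height and points lie beyond. Both single mutants sit between the double mutant and Col-0, and Col-0 replicate 1 sits above the other Col-0 arrays.

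The lower and the upper steps were of similar size, which the rule favours, since the score is the smallest of the 4 steps. The median member stood 0.77 above pmr5 and 0.89 above pmr6 in the double mutant, and 0.98 (pmr5) and 0.86 (pmr6) above Col-0 in the single mutants, all on the log2 scale. The median of all eligible rows lay within 0.03 of 0 for each of these steps. The double mutant exceeded Col-0 by a median of 1.86 on the log2 scale, a 3.64-fold difference, with a range of 1.97-fold to 13.2-fold. For 59 members the double mutant was at least 4-fold above Col-0, as it was for 70 of the 13659 eligible rows. Scores ran from 0.45 to 1.55 with a median of 0.61.

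The members covered the range from dim to bright probe sets. Their mean intensity over the 12 arrays ran from 103 to 9311 with a median of 410, against a median of 449 over the eligible rows. This mean includes the genotypes in which the rule makes members high. In Col-0 alone their median was 169.5, against 441.6 over the eligible rows, and in the double mutant 757.2, against 449.5. In Col-0, 46 members averaged under 100 (30.7%, against 2.63% of eligible rows) and 6 under 28, the pseudocount (4%, against 0.0439%). These members reached the minimum mean of 100 through the other genotypes, and their fold changes are understated on the scale used. By limma's test (adjusted p under 0.05), 150 members were higher in the double mutant than in Col-0, against 9.88% of the 17059 rows tested, 131 were higher in pmr5 than in Col-0 (4.19% of rows) and 100 in pmr6 than in Col-0 (2.15%). The double mutant was higher than pmr5 in 93 members (1.86% of rows) and higher than pmr6 in 121 (4.13%). All 4 steps passed in 66 members, against 0.492% of rows. The same genotype means chose the members, so nothing is read from these counts.

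The double-mutant arrays and the Col-0 arrays were clear of the other arrays for most members. In 96 members the 3 double-mutant arrays all lay above the other 9 arrays and the 3 Col-0 arrays all lay below them, against 1.59% of eligible rows. In 123 the double-mutant arrays stood clear of all others, against 5.25% of eligible rows, and in 111 the Col-0 arrays did so from below, against 4.97%. The rule favours such rows, and these counts describe the members only.

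The probe set of rank 1 had the highest score, 1.55. Its intensity was 2373, 2109 and 1206 on the pmr5 pmr6 arrays, 389, 473 and 302 on the pmr5 arrays, 470, 720 and 626 on the pmr6 arrays, and 120, 130 and 89 on the Col-0 arrays. The double-mutant arrays lay above all single-mutant arrays and the Col-0 arrays below them, while the lowest pmr6 array fell just under the highest pmr5 array. The double mutant stood 3.72 above Col-0, pmr5 1.55 and pmr6 2.16 on the log2 scale, which for the double mutant is 13.2-fold.

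Rank 3 stood at 603, 661 and 533 in pmr5 pmr6, at 280, 301 and 181 in pmr5, at 267, 243 and 259 in pmr6 and at 110, 95 and 100 in Col-0. The 4 steps were nearly equal, from 1.10 to 1.18 on the log2 scale. The double mutant, the single mutants and Col-0 did not overlap, and the single mutants overlapped each other.

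Rank 8 was the brightest member. It reached 20593, 18391 and 21226 in pmr5 pmr6, 11961, 10209 and 7929 in pmr5, 5036, 4701 and 4374 in pmr6, and 4509, 1672 and 1133 in Col-0. Here Col-0 replicate 1 lay above the lowest pmr6 array, so pmr6 and Col-0 overlapped. The step from pmr6 to the double mutant (log2 2.09) was larger than that from pmr5 (1.02).

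Rank 2 shows the dim end. It stood at 323, 242 and 145 in pmr5 pmr6, at 28, 164 and 67 in pmr5, at 84, 100 and 59 in pmr6, and at 1.7, 2.6 and 42.1 in Col-0. Its lowest pmr5 array lay below its highest Col-0 array and its highest pmr5 array above the lowest double-mutant array, so the groups overlapped on both sides.

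Among the 20 members of highest score the double mutant averaged 3.75-fold to 13.2-fold above Col-0. Rank 4 averaged 2502 ± 431 in pmr5 pmr6, 1168 ± 425 in pmr5, 1171 ± 233 in pmr6 and 272 ± 198 in Col-0 (SD, n = 3 each, as for ranks 11, 13 and 17). Rank 11 averaged 4621 ± 729 in pmr5 pmr6, 2358 ± 572 in pmr5, 1890 ± 129 in pmr6 and 557 ± 187 in Col-0. In both, the double mutant was clear of the single mutants and Col-0 lay below them. Rank 13 averaged 4128 ± 437 in pmr5 pmr6, 2104 ± 255 in pmr5, 1457 ± 86.3 in pmr6 and 603 ± 187 in Col-0. Rank 17 had its single mutants in the other order, with 2388 ± 792 in pmr5 pmr6, 876 ± 397 in pmr5, 1188 ± 132 in pmr6 and 372 ± 199 in Col-0. In 11 of the 20 the single mutants lay within 0.25 of each other on the log2 scale, and in 12 both the double-mutant and the Col-0 arrays were clear of all the rest.

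**Figure D2:**
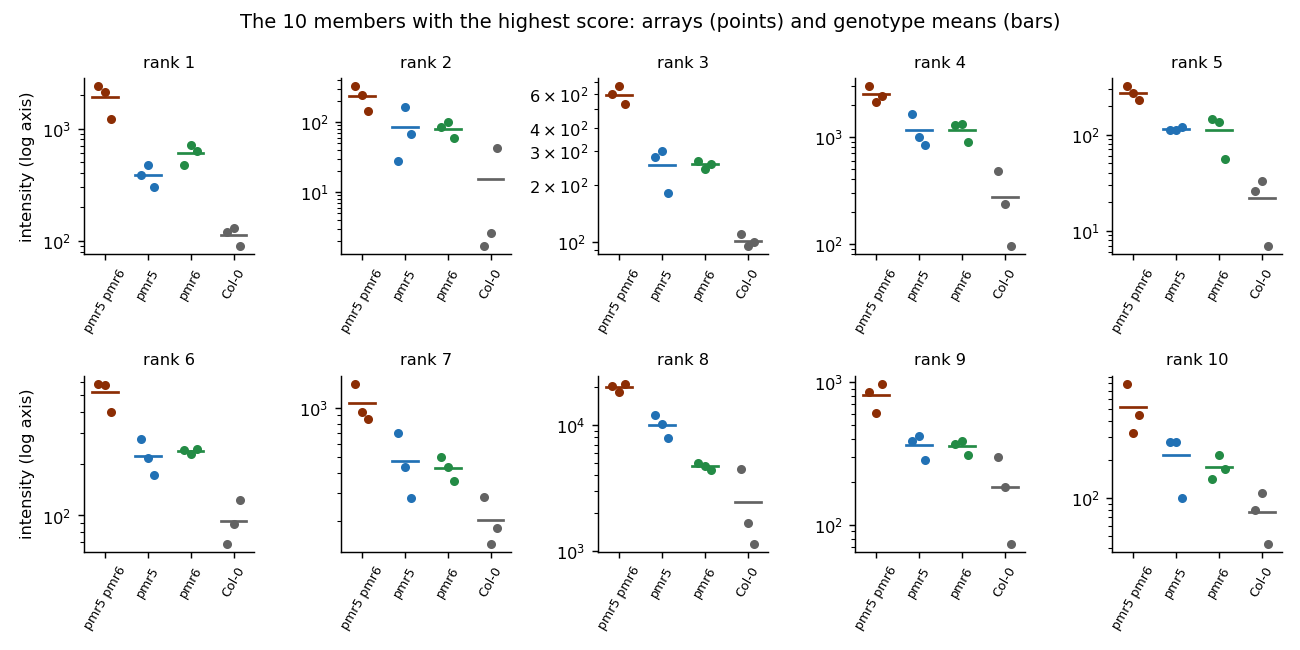
Intensity of the 10 members with the highest score on every array (points) with the genotype mean (bars), on a log axis of its own in each panel. In most panels the double mutant lies above all other arrays, while Col-0 arrays spread widely in ranks 2, 4 and 8.

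The lower edge of the set was a limit of number and not of score. Ranks 149 and 150 scored 0.451 and 0.4499, ranks 151 and 152 just outside scored 0.4493 and 0.4467, and in all 223 eligible rows outside the set scored over 0.25. Rank 150 averaged 307 ± 34.1 in pmr5 pmr6, 217 ± 22.8 in pmr5, 189 ± 29.8 in pmr6 and 128 ± 18.3 in Col-0 (SD, n = 3 each). Rank 151, outside, averaged 693 ± 89.4 in pmr5 pmr6, 504 ± 107 in pmr5, 249 ± 54.3 in pmr6 and 160.0 ± 22.5 in Col-0.

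The stepwise order was also read on arrays left out of the ranking of probe sets. The rule itself was set with earlier results of these data known, and each genotype kept its fluidics module in every run. The left-out runs are therefore no independent test of the order. The 3 hybridization runs each held 1 array of every genotype, so the rule was applied to the 8 arrays of 2 runs and the order was counted on the 4 arrays of the remaining one. Of 150 probe sets chosen without run 1, 127 stood in stepwise order in run 1, against 14.8% of all eligible rows. Without run 2, 139 of 150 were in order in run 2, against 16.5% of eligible rows. Without run 3 it was 122 of 150, against 13.9%. Over the 3 choices 388 of 450 (86.2%) kept the order. The 3 lists shared 117, 117 and 112 probe sets with the 150 members, so many probe sets were counted more than once and the 450 are not separate observations. With 1 array per genotype in a run these are counts with no test.

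The sizes of the steps on the arrays left out differed between runs. The median double mutant minus Col-0 difference was 1.55, 1.81 and 1.70 (log2) in runs 1, 2 and 3 when each was left out, against 1.85, 1.72 and 1.93 on the arrays that made the choice. All 150 chosen probe sets were higher in the double mutant than in Col-0 in runs 1 and 3, and 149 in run 2, while close to 50% of eligible rows were (52.1% in run 1, 49.4% in run 2 and 50.1% in run 3). The smallest median step was that of pmr6 over Col-0 in run 1, at 0.51 (log2), against 0.98 on the choosing arrays. The largest was that of pmr5 over Col-0 in run 2, at 1.15, against 0.81 on the choosing arrays. The step with the fewest probe sets in its direction was that of the double mutant over pmr6 in run 3, with 129 of 150 and a median of 0.60, against 0.93 on the choosing arrays.

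**Figure D3:**
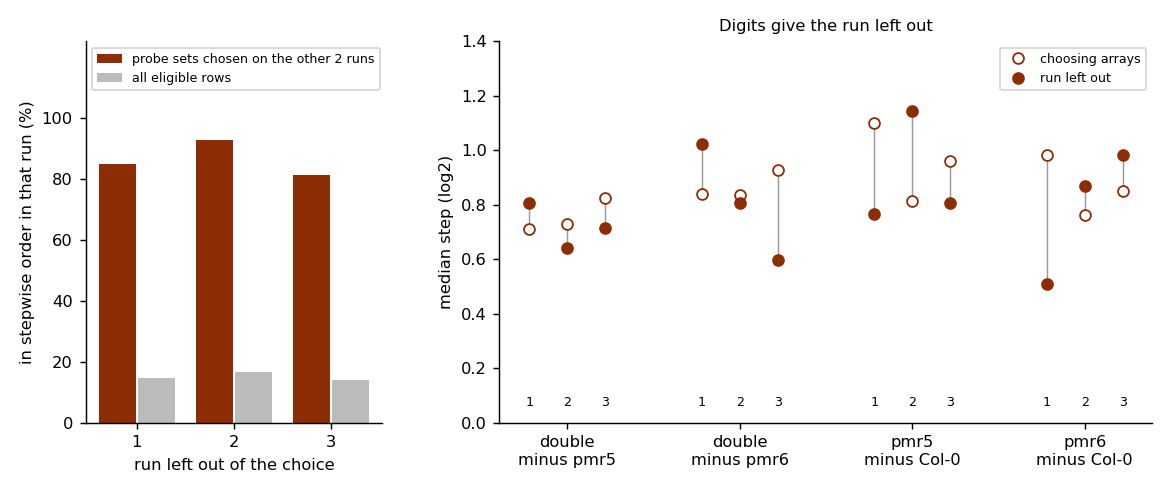
Left: percent of probe sets chosen on 2 hybridization runs, and of all eligible rows, that stood in stepwise order in the remaining run. Right: median step (log2) of the chosen probe sets on the choosing arrays (open) and in the run left out (filled). Between 81.3% and 92.7% of the chosen probe sets kept the order, and every median step stayed above 0.5.

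The rule treats the single mutants alike, which leaves free the direction of the difference between them. It used both means and bounds how far apart they could lie, so the size of the difference is not independent of it, and the calls below describe the members in a fit of the whole table. In 63 members pmr6 had the higher mean and in 87 (58%) pmr5, and pmr5 was the higher in 57.1% of eligible rows as well. On the arrays left out of the choice pmr5 was the higher in 101 of 150 probe sets in run 1, 105 in run 2 and 57 in run 3. The 3 lists differed and the share of eligible rows was not computed by run, so no lean is read from these counts. The single mutants lay within 0.25 log2 of each other in 74 members (49.3%, against 82.7% of eligible rows). Where they lay further apart, pmr6 was higher in 30 (20%, against 6.52%) and pmr5 in 46 (30.7%, against 10.8%). The 3 pmr6 arrays all lay above the 3 pmr5 arrays in 15 members, against 7.56% of eligible rows, and all below them in 32, against 11.3%. By limma's test, adjusted over all 17059 rows, 6 members differed between pmr6 and pmr5 (adjusted p under 0.05), against 0.44% of all rows tested. Of these, 4 were higher in pmr6, against 0.264% of all rows, and 2 were lower, against 0.176%. With the replicate number, which is the hybridization run, as a block, limma called 13 members, against 113 of all rows tested. Of the 13, 4 were higher and 9 lower in pmr6, so the balance of directions depended on the fit. The median pmr6 minus pmr5 difference was -0.06 (log2) over the members and -0.03 over all rows. Members were also more spread within genotypes than other rows, with a median SE of 0.20 for this difference, against 0.13 over the eligible rows.

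Rank 24 had the largest difference in favour of pmr6. Its intensity was 1016, 1069 and 1904 on the pmr6 arrays and 324, 519 and 484 on the pmr5 arrays, with 2803, 2175 and 2147 in pmr5 pmr6 and 303, 139 and 267 in Col-0. The pmr6 arrays lay clear of the pmr5 arrays, and 1 pmr5 array came close to the highest Col-0 array. The difference was 1.497 ± 0.23 (log2 ± SE; limma adjusted p = 0.0029).

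Rank 21 was higher in pmr6 as well, with 2625, 2709 and 3661 in pmr6 and 1155, 1925 and 1351 in pmr5, set between 6320, 5541 and 4813 in pmr5 pmr6 and 762, 659 and 726 in Col-0. All 4 genotypes were separate on every array. The pmr6 minus pmr5 difference was 1.02 ± 0.15 (log2 ± SE; limma adjusted p = 0.002).

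Rank 133 had narrower groups, with 1612, 1625 and 1744 in pmr6 and 1034, 1268 and 1152 in pmr5. The difference of 0.52 ± 0.09 (log2 ± SE) passed limma's test at an adjusted p of 0.011. The remaining call in this direction, rank 35, was singled out after its values were seen. It averaged 1181 ± 127 in pmr6 and 664 ± 211 in pmr5 (SD, n = 3 each; limma adjusted p = 0.038).

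The 2 members lower in pmr6 were ranks 146 and 72. Rank 146 stood at 1188, 1188 and 1072 in pmr6 and at 2215, 1711 and 1795 in pmr5, with 2781, 2759 and 2321 in pmr5 pmr6 and 858, 692 and 540 in Col-0. All 4 genotypes were separate, and the pmr6 minus pmr5 difference was -0.71 ± 0.13 (log2 ± SE; limma adjusted p = 0.012). Rank 72 stood at 535, 387 and 490 in pmr6 and at 789, 697 and 691 in pmr5, a difference of -0.61 ± 0.13 (log2 ± SE; limma adjusted p = 0.038). Rank 101, next in line, averaged 1258 ± 119 in pmr6 and 1829 ± 129 in pmr5 (SD, n = 3 each; limma adjusted p = 0.057) and missed the threshold.

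The count of calls depended on single arrays in both directions. All 6 differences kept their sign in every setting run. There were 11 members called without Col-0 replicate 1 (4 higher and 7 lower in pmr6) and 10 without Col-0 replicate 3 (4 higher and 6 lower), but 1 without the 2 arrays that had a raised dim end (pmr5 replicate 1 and pmr5 pmr6 replicate 3), 2 without pmr5 replicate 1 alone and 2 without pmr6 replicate 3. There were 0 members called in limma without the intensity trend, where 31 had an unadjusted p under 0.05 and the 6 adjusted p-values ran from 0.19 to 0.35. Calls over all rows tested moved too, from 75 to 91 without Col-0 replicate 1 and to 61 without Col-0 replicate 3. They numbered 16 without the 2 arrays that had a raised dim end and 15 without pmr5 replicate 1. Without pmr6 replicate 3 they were 19, and without the trend 6.

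**Figure D4:**
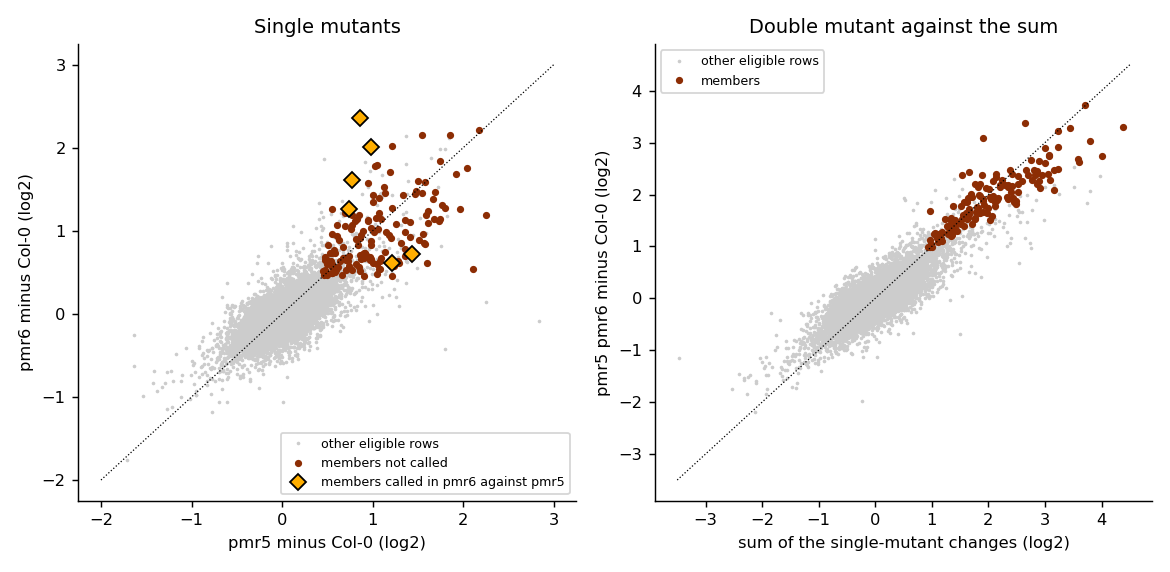
Left: change in pmr6 against change in pmr5, each minus Col-0 (log2), for the members and all other eligible rows, with the 6 members that differed between the single mutants as diamonds and equality as a dotted line. Right: change in the double mutant against the sum of the single-mutant changes (log2), with equality dotted; 59 of 150 members lie above the line and 91 below it.

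Whether the single-mutant changes add up in the double mutant was read on the log2 scale. The interaction, the amount by which the change in the double mutant exceeds both single-mutant changes added together, had a median of -0.06 (log2) over the members, with quartiles of -0.31 and 0.08, and 0.00 over all rows tested. It lay within 0.25 of 0 in 88 of the 150 members (58.7%), against 71.0% of eligible rows. It was above 0 in 59 (39.3%, against 48.5%) and below it in 91 (60.7%, against 51.5%). On the arrays left out of the choice its median was 0.27 in run 1, -0.30 in run 2 and -0.29 in run 3 (log2), so its sign differed between runs. By limma's interaction test 0 members passed an adjusted p of 0.05, against 0.117% of all rows. An unadjusted p under 0.05 was found in 15 members, against 8.64% of all rows. Of these 15, 4 lay above the sum (3.77% of all rows) and 11 below (4.87%). The interaction is made of the same differences as the score, which asks for all of them to be large and bounds how far below the sum a member can lie, so these values describe the chosen rows and are no independent test of additivity. The median SE of a member's interaction was 0.29 (log2). Departures as large as -1.274 (rank 82) below the sum and 1.185 (rank 68) above it did not pass.

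A sum on the log2 scale is a product of fold changes, and increases that come near to multiplying exceed the sum on the plain intensity scale by arithmetic. The rule chose for such increases, so the next count describes the members only. The double mutant stood above pmr5 plus pmr6 minus Col-0 in 141 of 150 members, with a median ratio of 1.22, where 51.7% of eligible rows stood above it.

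Rank 57 had the smallest interaction p among the members. Its intensity was 1316, 1303 and 1056 in pmr5 pmr6, 441, 446 and 359 in pmr5, 344, 390 and 327 in pmr6, and 235, 211 and 194 in Col-0. The double-mutant arrays lay above all others, at 2.37 (log2) over Col-0, with single-mutant changes of 0.87 and 0.66. The interaction was 0.84 ± 0.18 (log2 ± SE; limma adjusted p = 0.08). It passed with a pseudocount of 100 and with the run as a block, both at an adjusted p of 0.032 in limma. Ranks 76 and 138 followed above the sum, with interactions of 0.78 and 0.71 (log2) that did not pass.

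Below the sum, rank 107 had an interaction of -0.61 ± 0.17 and rank 126 one of -1.08 ± 0.31 (log2 ± SE; limma adjusted p = 0.26 for both). Rank 126 stood at 8971, 7452 and 8490 in pmr5 pmr6, at 6719, 5626 and 5232 in pmr5, at 6749, 6221 and 4833 in pmr6, and at 3526, 1493 and 1377 in Col-0. Col-0 replicate 1 was more than 2-fold above the other Col-0 arrays there. Without that array the interaction of rank 126 was -1.51 (log2; limma adjusted p = 0.00024), and ranks 40 and 82, singled out after their values were seen, also passed below the sum, at -0.99 (adjusted p = 0.024) and -1.85 (adjusted p = 0.0015). Rank 44 had an interaction of -0.98 ± 0.31 (log2 ± SE; limma adjusted p = 0.32).

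The brightest members were ranks 8, 107, 87, 110 and 94. Rank 107 averaged 11500 ± 602 in pmr5 pmr6, 8037 ± 1154 in pmr5, 6856 ± 793 in pmr6 and 3139 ± 610 in Col-0 (SD, n = 3 each, as in the next sentence). Rank 94 averaged 10140 ± 691 in pmr5 pmr6, 4344 ± 447 in pmr5, 5846 ± 1138 in pmr6 and 2965 ± 446 in Col-0. In both, the double-mutant arrays lay above all others and the Col-0 arrays below. Ranks 87 and 110 rose less, with the double mutant 2.40-fold and 2.29-fold above Col-0.

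The members moved together within genotypes, a property the rule did not use. For each probe set the deviation of each array from its genotype mean was taken. The deviations of 2 members correlated at a mean of r = 0.33 over the 12 arrays, against 0.00 for 2 eligible rows. Of the 150 members, 142 (94.7%) correlated positively with the mean deviation of the other members, against 48.4% of eligible rows, and 62 did so at r over 0.7, against 3.25%. All rows share the same 12 arrays and the deviations of a genotype sum to 0, so these coefficients are descriptions.

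Col-0 replicate 1 stood apart for the members. They lay there a mean of 0.34 (log2) above their Col-0 mean, against -0.14 and -0.20 in Col-0 replicates 2 and 3. It was the highest of the 3 Col-0 arrays for 118 of 150 members, against 34.4% of eligible rows, which lay at 0.00 on average on that array. In the double mutant, replicates 1, 2 and 3 deviated by 0.18, 0.00 and -0.17 (log2), in pmr5 by 0.07, 0.11 and -0.18, and in pmr6 by 0.00, 0.04 and -0.04. The highest Col-0 array had a mean log2 level of 8.23 and the lowest single-mutant array one of 8.76. The rule favours this gap, since it chose rows with Col-0 means below both single-mutant means.

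Members averaged 0.15 above their genotype means in run 1, 0.00 in run 2 and -0.15 in run 3 (log2), while eligible rows stayed within 0.01 of 0 in each. The mean correlation between members was 0.22 with the run taken out, 0.22 without Col-0 replicate 1 and 0.26 without all Col-0 arrays.

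**Figure D5:**
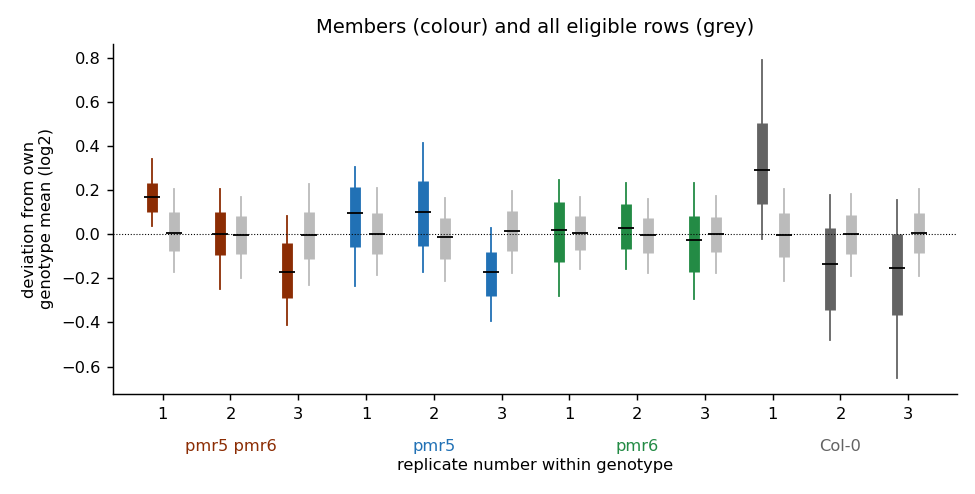
Deviation of each array from its own genotype mean (log2), for the 150 members (coloured) and all eligible rows (grey); thick bars span the quartiles, thin lines the 10th to 90th percentiles and dashes the medians. Members lie above 0 on Col-0 replicate 1 and on pmr5 pmr6 replicate 1 and below it on the third arrays of pmr5 pmr6, pmr5 and Col-0, while eligible rows stay near 0 throughout.

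Members that leaned to one single mutant moved together more closely. The 46 members higher in pmr5 by at least 0.25 (log2) had a mean correlation of deviations of 0.47, as had the 30 higher in pmr6, against 0.30 in the 74 with near-equal single mutants. The near-equal group also changed less. Its median double mutant minus Col-0 difference was 1.52 (log2), against 2.05 in the members leaning to pmr5 and 1.98 in those leaning to pmr6. The members leaning to pmr6 were brighter, with a median intensity of 782, against 363 in those leaning to pmr5 and 385 in the near-equal group. None of these differences between groups of members was tested.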

How the data were processed

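Per the labels, biotinylated cRNA was made from 15 µg of total RNA per array by the standard Affymetrix protocol. The authors deposited a table of linear intensities with 22810 rows and 12 array columns; no source used here names the software behind it. The deposited arrays have a common scale, with a mean of 499 to 500 between the 2nd and 98th percentiles. Intensities were used as log2(intensity + 28), with no further normalization. Hybridization runs and fluidics modules came from the instrument records, and the replicate number equals the run.

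Members followed the stated rule and, like the lists and tests, were chosen with earlier results of these data known. For tests, rows with AFFX identifiers and the dimmest 25% of the rest by mean log2 level were left out (17059 kept), and 4 genotype means were fitted with limma 3.58.1 in R 4.3.3 (eBayes with an intensity trend, 8 residual and 12 prior degrees of freedom, Benjamini-Hochberg adjustment over all rows). Calls are described for pmr6 against pmr5 and the interaction, whose sizes the rule also constrains. The fit was tested on simulated data. Figures used matplotlib 3.10.9. The number of arrays limits the precision. Members considered were the 20 of highest score, the 5 brightest and those at the edge. Up to 3 per direction with the smallest adjusted p in each of the 2 tests were added. The 20 are described as a group, with values printed for only some of them. The alternatives were other pseudocounts, dim filters, quantile normalization, no trend, the replicate block and arrays left out. Gene lists and markers were not used, since the row order was not shown.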

Additional observations from a re-analysis of the deposited data

How the results depend on the processing

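The 150 members depended little on the settings. Leaving out 1 array kept between 128 and 142 of them, gave between 334 and 418 rows scoring over 0.25 and a median score between 0.532 and 0.653, and the other settings kept between 113 (minimum mean intensity of 200) and 150. The count of members that differed between pmr6 and pmr5 was 13 with the replicate block, 4 higher and 9 lower in pmr6, 1 without both arrays with a raised dim end and 0 without the intensity trend. With 1 array left out it ran from 2 to 11, with 2 when pmr5 replicate 1 or pmr6 replicate 3 was left out. It was 11 for Col-0 replicate 1 and 10 for Col-0 replicate 3, and the cause was not tested. Over all rows tested, calls were 75 in the main fit, 113 with the replicate block and 16 without both arrays with a raised dim end. They were 6 without the intensity trend and ran from 15 to 192 with 1 array left out. The count for the interaction was 1 with a pseudocount of 100 and 1 with the replicate block (27 and 26 over all rows tested). It ran from 0 to 3 with 1 array left out, with 3 without Col-0 replicate 1 (17 over all rows tested). The same-number arrays of different genotypes had deviations that correlated between -0.065 and 0.084 over all rows tested. For different-number arrays the range was -0.145 to 0.133, and the main fit did not pair the samples by number. These ranges do not speak to the members, whose mean deviation was 0.147 in run 1 and -0.146 in run 3 (log2). The counts with the replicate block are therefore given beside those of the main fit. The share in order in the run left out was between 84% and 87.3% in the alternatives. The mean correlation of members' deviations, for which the alternatives were chosen after seeing the data, ran from 0.216 to 0.359 with 1 array left out and was lowest without Col-0 replicate 1; it was 0.216 with the replicate block too. Each run holds 1 array per genotype, so no test was possible within a run, and the order in a left-out run was not computed without both arrays with a raised dim end.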

Other observations

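Among the 13509 eligible rows that were not members, 382 had deviations that correlated over 0.7 with the mean deviation of the members. Another 476 lay below -0.7, so rows that moved with the members were no more frequent than rows that moved against them. No expected count was computed. The double mutant lay above Col-0 in 261 of the 382 (68.3%), against 50.4% of all non-members, and 37.7% stood in stepwise rising order, against 17.6%. For the 476 rows that correlated below -0.7, the shares were 47.7% and 14.5%, and 20.2% stood in the opposite, falling order, against 18.5% of all non-members. These are counts with no test.

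Stepwise falling probe sets, taken by the mirror image of the rule, were fewer and changed less. Of the eligible rows, 373 (2.73%) scored over 0.25 in the rising and 188 (1.38%) in the falling direction, with highest scores of 1.55 and 0.83. The 150 leading rows of each kind had a median double mutant minus Col-0 difference of 1.86 and -0.97 (log2). Deviations within genotypes correlated between rows at a mean of 0.33 in the rising and 0.05 in the falling set. On Col-0 replicate 1 the falling rows lay at a mean of -0.05 (log2) from their Col-0 mean, against 0.34 in the rising rows.

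The members were spread over the table, with 50, 53 and 47 in its 3 parts of equal length. There were 4 members in a row next to another member's, as 2 pairs, ranks 7 and 10 and ranks 15 and 42, where 1.1% of eligible rows were members. None of the members was among the first 64 rows, of which 35 were eligible. Leaving out these 64 rows in place of those with AFFX identifiers kept all 150 members.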
